A study of Mus musculus with 3 samples.

Results

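The genes described here are the cytosolic ribosomal protein genes of mouse liver cells. They were taken by symbol: every gene whose symbol is Rpl or Rps followed by a digit, with Rplp0, Rplp1, Rplp2 and Rpsa, and without the Rps6k kinases, the pseudogenes written with -ps and genes under 100 UMIs (unique molecular identifiers, each marking 1 captured RNA molecule) over 3 libraries. Of 31253 genes, 105 symbols matched the pattern and 87 were left after kinases and pseudogenes were taken out. Rps23rg1, with 6 UMIs, and Rpl10l, with 0, fell under the minimum, so 85 members remained. Proteins of the large subunit account for 50 of them and proteins of the small subunit for 33. The other 2, Rps19bp1 and Rpl7l1, match by symbol but encode no subunit of the mature ribosome: the first is a binding partner of Rps19, and the second resembles Rpl7 and acts in ribosome assembly.

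The RNA of single liver cells was counted in droplets, by chemistry that reads the 3′ end of transcripts, in 3 libraries, 1 per group. FL_control is labelled as a mouse with floxed Gsdmd (GsdmdFL/FL, genotype tag WT) that was not irradiated. FL_IR carries the same floxed genotype label and was exposed to 30 Gy of radiation, with the liver taken 7 days later. The third group, dHep_IR, is labelled Gsdmd∆Hep, a hepatocyte deletion (genotype tag gsdmd-ko), with the same dose and day. Both irradiated groups share the exposure, and the Cre driver, age, sex, irradiated body region and number of animals per library are not given in the sources used here. Since a group is 1 library, differences between groups have no replicate check and are given without a test. Each interval is a 95% interval that covers counting error only. FL_IR against FL_control asks about irradiation, dHep_IR against FL_IR about the labelled deletion under irradiation, and dHep_IR against FL_control is given beside them. The 3 comparisons share libraries, so their values are not independent of each other.

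Ribosomal proteins line the ribosomal RNA of the small subunit, which reads the messenger RNA, and of the large subunit, which joins amino acids. Their messenger RNAs are among the most abundant of any cell, and most begin with a terminal oligopyrimidine (TOP) tract, through which mTOR signalling controls their translation together with that of several translation factors. Free ribosomal proteins of the 5S particle, Rpl5 and Rpl11, bind Mdm2 and so stabilise p53 when ribosome assembly is disturbed. Neutrophils are short-lived cells that make much of their protein during maturation in the bone marrow, whereas lymphocytes are small cells in which ribosomal protein RNAs take up a large part of the messenger RNA.

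The kept cells numbered 6458, 6545 and 7261 in FL_control, FL_IR and dHep_IR, with a median of 5838, 7409 and 7967 UMIs per cell. Clusters were formed without ribosomal protein and mitochondrial genes and named by marker genes, so the members did not define the classes compared. Control and irradiated cells of a class mostly lay in different clusters: endothelial-like cells of FL_control in clusters 0 and 2 and those of the irradiated libraries in 16, 17, 18, 19 and 25, neutrophil-like cells in cluster 3 against 22, 23 and 24, and Kupffer-like cells in cluster 13 against 4. The level of Gsdmd was 36.4 CPM (counts per 1000000 UMIs) for FL_control but 7.21 for FL_IR and 36.9 for dHep_IR. The labels give no reason for the low level of FL_IR. A hepatocyte deletion could hardly be read from dHep_IR, where 8 of 7261 kept cells were hepatocyte-like. Every group name below therefore means the library labelled so. Whether the irradiated libraries were exchanged was not tested; an exchange would turn every direction of dHep_IR against FL_IR. Kept cells shared 7 barcodes between FL_IR and FL_control, 24 between dHep_IR and FL_IR and 42 between dHep_IR and FL_control. Only 104, 42 and 8 cells were hepatocyte-like, the type named by the label of the deletion, and they were not compared.

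The promoters of the members on which the results below turn are shown first, since TOP messages are defined by the bases at the transcription start. Each is given from 40 bases before to 20 bases after the RefSeq start (GRCm38.p6), in lower case, with the pyrimidine strings searched for in capitals. The strings were CTTTC or CTTCC or CTCTT or CCTTT, which can overlap each other, looked for on the transcribed strand from 20 bases before to 20 bases after the start.
Rps27, chr3:90213629-90213688, - strand: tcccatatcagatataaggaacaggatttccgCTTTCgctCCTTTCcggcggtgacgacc
Rps27rt, chr9:114982720-114982779, - strand: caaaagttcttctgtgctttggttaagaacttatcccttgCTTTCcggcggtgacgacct
Rps27l, chr9:66946046-66946105, + strand: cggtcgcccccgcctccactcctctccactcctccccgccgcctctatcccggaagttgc
Rps19, chr7:24884552-24884611, + strand: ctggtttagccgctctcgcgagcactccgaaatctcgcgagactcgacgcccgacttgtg
Rpsa, chr9:120127726-120127785, + strand: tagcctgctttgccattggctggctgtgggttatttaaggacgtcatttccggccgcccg
Rps6, chr4:86857348-86857407, - strand: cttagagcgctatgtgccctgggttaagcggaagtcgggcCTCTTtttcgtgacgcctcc
Rps27 and Rps27rt held a string, and their sequences after the start shared a run of 38 bases; Rps6, the member that S6 kinases phosphorylate, is printed as an example with the string right at the start. Rps27l, Rps19 and Rpsa held none of the 4 strings in this window, as RefSeq places their starts. Of the 65 members with an entry, 36 (55.4%) held a string, against 6018 of 27025 genes (22.3%) in the whole table. A match is a description of these letters and not a measured start site.

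Members differed widely in level. Over the 3 libraries together, the median member stood at 1647 CPM, the highest at 3365 and the lowest at 0.81. UMIs of 3′ ends are not divided by transcript length, so these are molecules counted and not reads per base. The 5 highest were Rps29, Rps24, Rplp1, Rpl23 and Rps27. Rps29, a zinc-binding protein of the small subunit, was highest in FL_control over all kept cells, with 4662 CPM there, 2724 in FL_IR and 2974 in dHep_IR. The 10 highest members held 21.1% of all ribosomal protein UMIs. The 5 lowest were Rps27rt, Rpl7l1, Rps19bp1, Rpl3l and Rpl39l, the members under 100 CPM, and they are paralogues or the non-ribosomal pair.

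Over all kept cells the members took 16.2% of UMIs in FL_control, 10.2% in FL_IR and 13.3% in dHep_IR. The ratio of FL_IR to FL_control was 0.633 (0.632 to 0.633) and that of dHep_IR to FL_control 0.826 (0.825 to 0.826). Cell numbers differed beside this: neutrophil-like cells, poor in these RNAs, numbered 459, 2342 and 1850, and B-like cells, rich in them, 1418, 21 and 11. Their part in the order was not tested, but without both classes the shares were 14.3%, 16.0% and 18.6%, so both directions turned. With TMM scaling (trimmed mean of M values, edgeR) the log2 ratio of dHep_IR to FL_control also turned, from -0.28 to 0.35, and that of FL_IR to FL_control went from -0.66 to -0.09. Shares within a class are therefore described next.

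**Figure D1:**
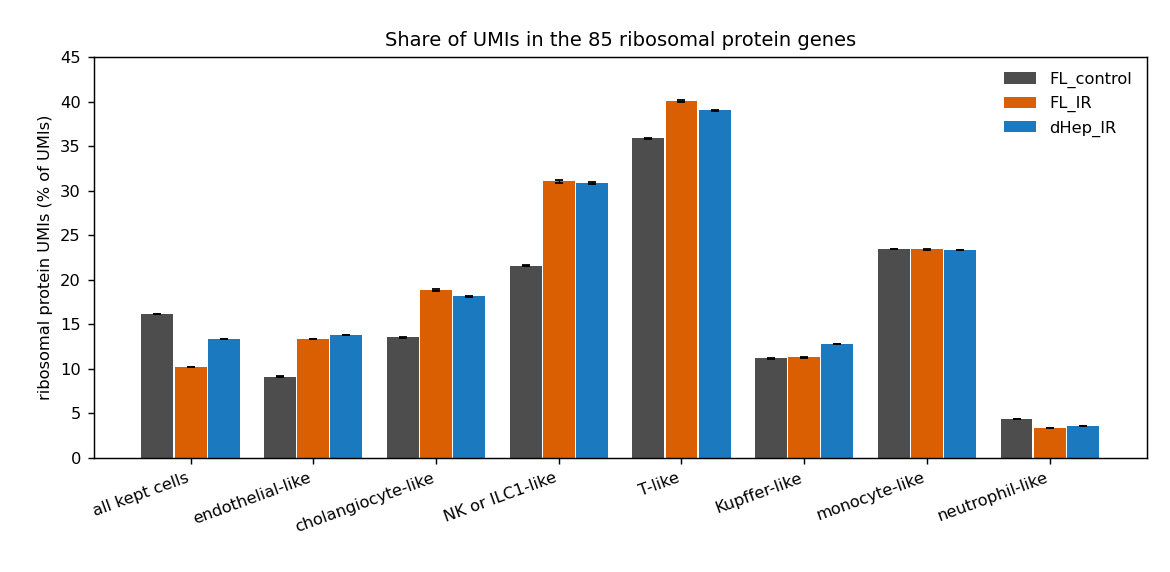
Bars give the UMIs in the 85 members as a percentage of all UMIs of the class (y axis), for each library, with 95% Clopper-Pearson intervals for counting error only. The share over all cells was lowest in FL_IR, while endothelial-like cells went from 9.10% to 13.3% and 13.8% and neutrophil-like cells stayed under 5% in each library; the lower neutrophil share of the irradiated libraries turned with TMM factors.

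Endothelial-like cells, the largest class, gave the members a larger share of their RNA in both irradiated libraries. The share was 9.10% in FL_control (1876870 of 20617195 UMIs, 9.09 to 9.12), 13.3% in FL_IR (13.29 to 13.32) and 13.8% in dHep_IR (13.79 to 13.82). FL_IR stood 1.46-fold (1.459 to 1.465) above FL_control, and 80 of 83 members with at least 100 UMIs had a log2 ratio above 0, beside 45.3% of all genes. The members' median log2 ratio was 0.55, against -0.07 for all genes. In dHep_IR against FL_control the ratio was 1.52 (1.51 to 1.52), with 81 of 83 members above 0 beside 40.1% of genes. Between the irradiated libraries the ratio was only 1.04 (1.035 to 1.039), although 64 of 83 members lay above 0, beside 34.9% of genes.

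The endothelial difference was also present among cells read to a like depth. In cells with 4000 to 8000 UMIs the members held 8.49% in FL_control, 13.4% in FL_IR and 13.7% in dHep_IR, from 697, 1645 and 1891 cells. Over 11 alternative settings the log2 ratio of FL_IR to FL_control lay between 0.50 and 0.62. Other measures moved with it: mitochondrial genes took 5.45%, 2.497% and 3.395% of endothelial UMIs, and the haemoglobin gene Hbb-bs stood at 1239, 4.27 and 6.24 CPM. Their part in the result was not tested, but with mitochondrial UMIs out of the total the direction was the same.

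Neutrophil-like cells had the lowest share of the classes compared, and as a part of all UMIs it was lower in both irradiated libraries, a direction that turned with TMM factors. The share was 4.33% (4.30 to 4.37) in FL_control, 3.36% (3.35 to 3.37) in FL_IR and 3.53% (3.52 to 3.53) in dHep_IR. For FL_IR against FL_control the ratio was 0.775 (0.769 to 0.781), with 64 of 84 members lower, yet the median of all genes was itself -0.41 on the log2 scale and only 31.2% of genes lay above 0. S100a8 and S100a9, the calprotectin genes of neutrophils, took 11.03% of neutrophil UMIs in FL_control, 32.1% in FL_IR and 35.4% in dHep_IR. With these 2 genes out of the total the members' share was 4.87%, 4.94% and 5.46%, so the direction turned. It turned with TMM factors as well, to log2 ratios of 0.47 for FL_IR and 0.63 for dHep_IR against FL_control. In dHep_IR against FL_control 31 of 84 members lay above 0 beside 30.5% of genes, and in dHep_IR against FL_IR 59 of 84 beside 37.9%. The direction of the share in dHep_IR against FL_IR was not stable. Its log2 ratio, 0.07, ran from -0.10 to 0.16 over 11 alternative settings, and the median cell had 3.23% in FL_IR and 3.12% in dHep_IR. Median depth of these cells differed too, at 3480, 9852 and 13266.5 UMIs. Cluster 23, with Camp, Ltf and Ngp among its leading genes, held 5, 577 and 930 of them, out of 459, 2342 and 1850. The part of this mix in the neutrophil values here and below was not tested.

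T-like cells had the highest shares, 35.9%, 40.1% and 39.0% in FL_control, FL_IR and dHep_IR. The ratio of FL_IR to FL_control was 1.12 (1.11 to 1.12), with 68 of 82 members above 0 beside 47.7% of genes. This direction turned within the larger of the 2 T-like clusters: in cluster 7 alone the share was 41.7%, 40.3% and 39.4%, a ratio of 0.966 (0.962 to 0.970). The other cluster, number 6, had 27.1% in FL_control and held 276 of that library's T-like cells, but only 16 of FL_IR and 33 of dHep_IR; of its 10 leading genes 1, Cd3g, was a T marker, while 5 (Xcl1, Nkg7, Il2rb, Ccl5 and Gzmb) also led the NK or ILC1-like cluster. In dHep_IR 38 of 81 members lay above 0 against FL_IR beside 49.1% of genes, and 66 of 83 against FL_control beside 45.9%.

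Monocyte-like cells had 23.4%, 23.4% and 23.3% in FL_control, FL_IR and dHep_IR, but from different clusters: all 237 cells of FL_control were in cluster 10, while 445 of 476 cells of FL_IR and 618 of 1166 of dHep_IR were in cluster 26. Among the 10 leading genes of cluster 10 were 5 of antigen presentation by MHC class II (H2-Eb1, H2-Ab1, H2-DMb1, H2-Aa and Cd74), which dendritic cells express highly, and 1 monocyte marker. At clustering resolution 2 a separate dendritic-like cluster held 110, 3 and 79 cells, and the monocyte-like log2 ratio of FL_IR to FL_control was 0.18 in place of 0.00. Within cluster 10 the share was 23.4%, 26.3% (31 cells) and 24.4%. For the whole class, FL_IR against FL_control had 37 of 83 members above 0 beside 48.8% of genes. For dHep_IR it was 47 of 84 against FL_IR, beside 45.1%, and 49 of 84 against FL_control, beside 42.6%. TMM factors moved both monocyte ratios against FL_control up, to log2 values of 0.20 and 0.25. Kupffer-like cells, the resident macrophages of the liver, had 11.2%, 11.3% and 12.8%, with 44 of 83 members above 0 in FL_IR against FL_control beside 50.9% of genes. Here dHep_IR stood 1.13-fold (1.126 to 1.136) above FL_IR, and 74 of 83 members had a log2 ratio above 0, beside 38.9% of genes; against FL_control it was 66 of 83 beside 42.2%. The log2 ratio of dHep_IR to FL_IR lay between 0.11 and 0.32 over 11 alternative settings, and Kupffer-like cells of dHep_IR were deeper, at a median of 7013.5 UMIs against 4928.5 in FL_IR.

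NK or ILC1-like and cholangiocyte-like cells reached 50 cells only in FL_control and dHep_IR. The members held 21.6% of UMIs in NK or ILC1-like cells of FL_control and 30.8% in those of dHep_IR, a ratio of 1.43 (1.42 to 1.44), with 78 of 81 members above 0 beside 35.4% of genes. In cholangiocyte-like cells, the bile duct epithelium, the shares were 13.5% and 18.1%, a ratio of 1.34 (1.33 to 1.35), with 78 of 83 members above 0 beside 38.5% of genes. FL_IR had 36 and 48 cells of these classes, with shares of 31.0% and 18.8%. Cholangiocyte-like cells of dHep_IR were much deeper, at a median of 30225.5 UMIs against 11886, and their log2 ratio ranged from 0.26 to 0.77 over 8 alternatives. Cluster 14 held 45 of the 55 FL_control cells, at a median of only 868 UMIs, against 32012 in its dHep_IR cells. With stricter cell filters, in cells of 2000 to 10000 UMIs and with each cell given to a class on its own, the class was not compared.

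A few members departed from the group, meaning that their log2 ratio lay at least 1 from the median of the members of that class, with an interval that left the median out. This measure does not move with the scaling of a library. In FL_IR against FL_control 6 of 84 members departed in any of 5 classes, 4 upward and 2 downward, whereas 15% of all genes lay as far above and 38.6% as far below the same medians in any class. In dHep_IR against FL_IR only 1 departed, beside 5.15% of genes higher and 6.54% lower. In dHep_IR against FL_control 12 of 84 departed in any of 7 classes, 8 upward and 4 downward, beside 13.9% and 54% of genes. In endothelial-like cells 2 members departed upward in each comparison with FL_control and none downward, beside 3.93% of genes higher and 29.4% lower for FL_IR and 3.72% and 36.4% for dHep_IR. The other classes with a departure were neutrophil-like cells, described below, monocyte-like cells, where only Rpl3l departed, upward, in dHep_IR against FL_control (beside 6.21% and 11.1% of genes), and cholangiocyte-like cells, where only Rps27rt did, downward (beside 2.49% and 22.4%).

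**Figure D2:**
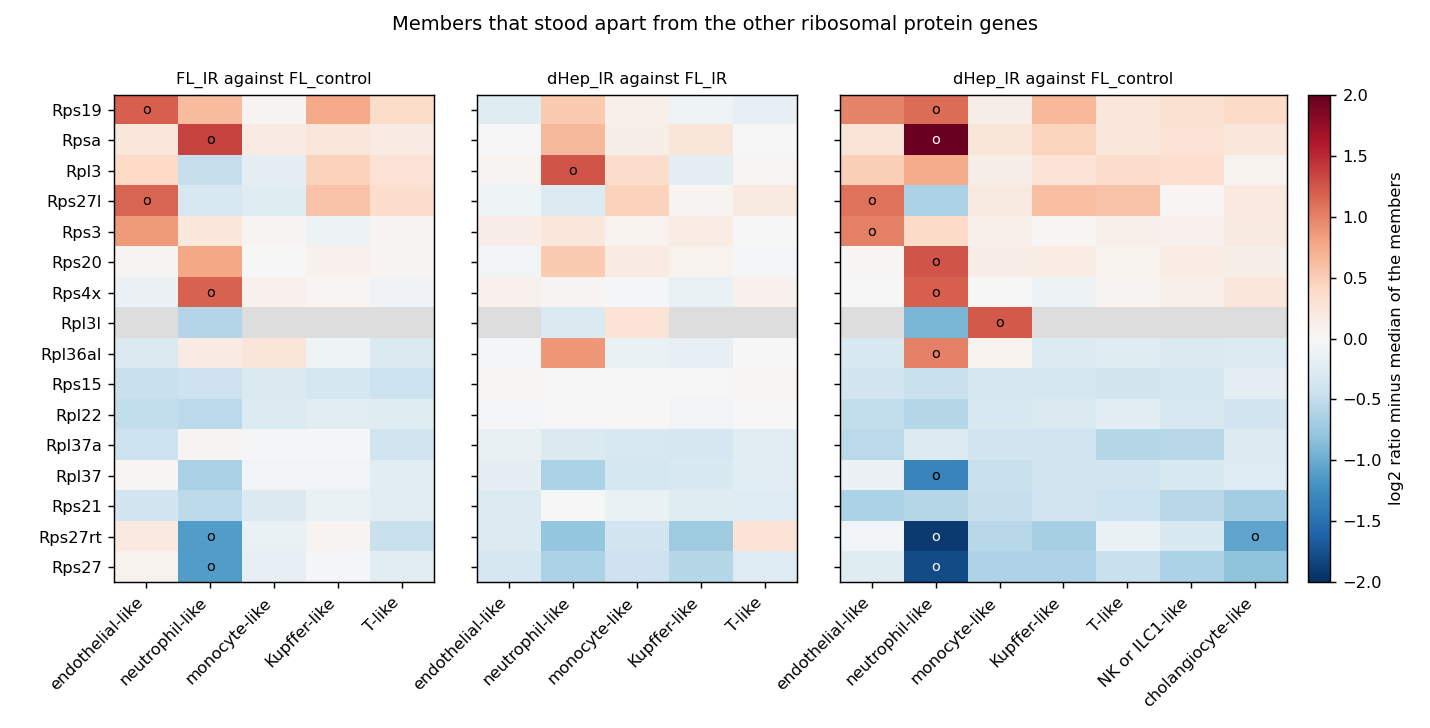
Colour gives a member's log2 ratio minus the median of all members of the class, for each comparison (panels) and class (columns), with circles at 1 or more and grey where a member had under 100 UMIs. Members shown departed in at least 1 class or lay at least 0.2 to the same side in every class. In endothelial-like cells circles mark Rps19, Rps27l and Rps3, most of the others are in neutrophil-like cells, and Rps27 is below 0 in every class in dHep_IR against FL_IR.

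Among small-subunit members of endothelial-like cells, Rps19, Rps27l and Rps3 stood highest above the group. Rps19, an assembly protein of the small subunit whose human counterpart is mutated in Diamond-Blackfan anaemia, had 1141 CPM in FL_control, against 3832 in FL_IR and 3443 in dHep_IR. Both irradiated libraries lay well above the control, by 3.36-fold (3.31 to 3.41) and 3.02-fold (2.97 to 3.06). Its deviation from the members' median was 1.20 and, just under the departure limit, 0.99. Rps19 also departed in neutrophil-like cells of dHep_IR against FL_control, at 1.12 (230, 287 and 445 CPM in the 3 libraries). In Kupffer-like cells, with 1327, 2255 and 2435 CPM, it deviated by 0.76 and 0.66. The gene (ENSMUSG00000040952) spans chr7:24884371-24889806 (GRCm38, + strand).

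Rps27l, a paralogue of Rps27 that p53 is known to induce, had 286 CPM in endothelial-like cells of FL_control, 931 in FL_IR and 925 in dHep_IR. The irradiated libraries were alike and 3.26-fold (3.16 to 3.36) and 3.24-fold (3.14 to 3.33) above the control. The deviations of Rps27l were 1.16 and 1.09. In Kupffer-like cells the levels of Rps27l were 296, 440 and 520 CPM and in T-like cells 102, 146 and 165, again lowest in the control. Neutrophil-like cells went the other way as a part of all UMIs, with 96.7, 62.4 and 55.4 CPM. TMM factors shifted every gene of these cells up by 0.84 and 0.93 on the log2 scale against FL_control. Both shifts were larger than these falls, so with TMM factors the direction turned for Rps27l. Its gene (ENSMUSG00000036781) spans chr9:66946086-66949516 (+ strand).

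Rps3, which sits where messenger RNA enters the small subunit, had 1233 CPM in endothelial-like cells of FL_control, 3258 in FL_IR and 3774 in dHep_IR. Its ratio to FL_control was 2.64 (2.60 to 2.68) in FL_IR, under the departure limit at a deviation of 0.86, and 3.06 (3.02 to 3.10) in dHep_IR, just past it at 1.01; with the mean of per-cell shares it was 0.99 and with each cell given to a class on its own 0.99, both under the limit. In the other classes compared Rps3 deviated by 0.39 or less in either direction.

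**Figure D3:**
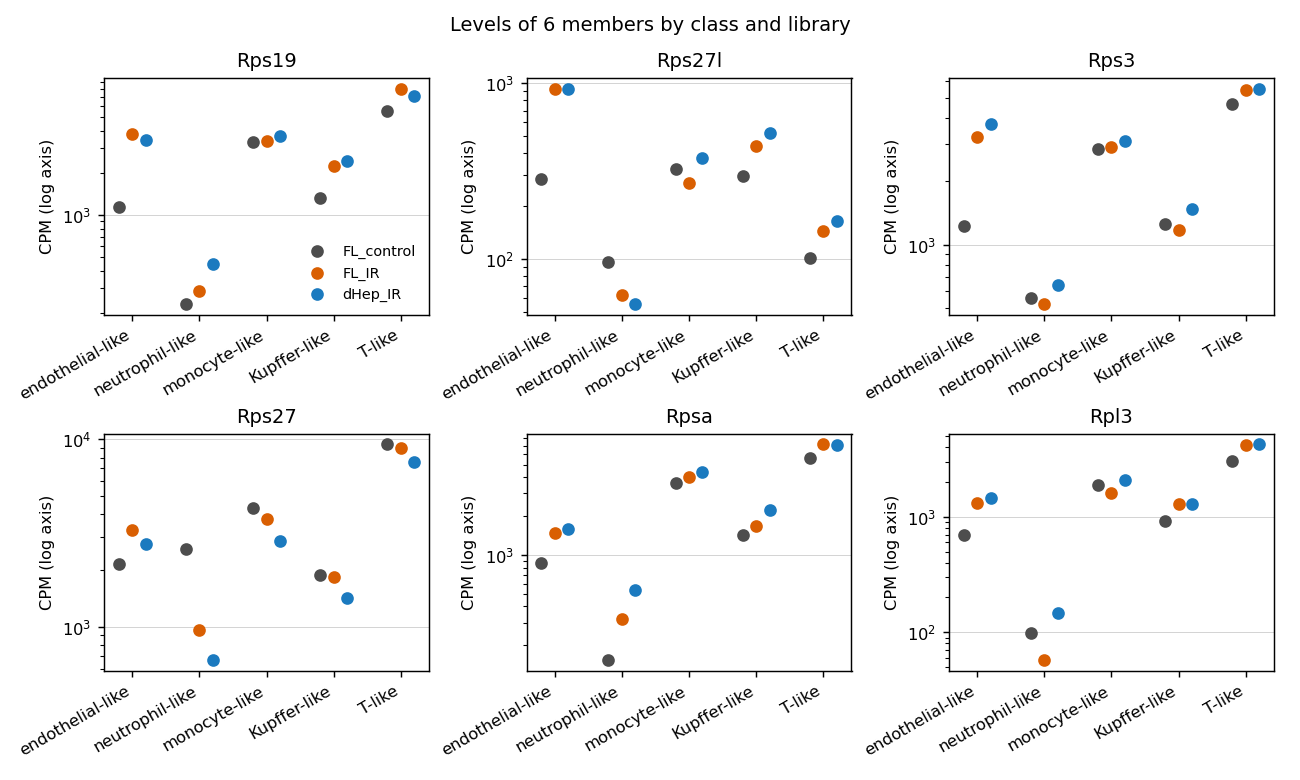
Points give the level (CPM, log axis) of 6 members in 5 classes, 1 point per library. For Rps19, Rps27l and Rps3 both irradiated libraries lie apart from FL_control in endothelial-like cells, whereas for Rps27 and Rpsa the libraries are furthest apart in neutrophil-like cells.

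Rps27, a zinc-finger protein of the small subunit, lay below the group in several classes. In neutrophil-like cells it had 2602 CPM in FL_control, against 962 in FL_IR and 666 in dHep_IR, 2.71-fold and 3.91-fold lower than the control. The deviations of Rps27 there were -1.12 and -1.79. In dHep_IR against FL_IR it was the only 1 of 81 members at least 0.2 below the median in every class compared, beside 4.66% of genes (and 0 as far above, beside 0.624%), with deviations from -0.25 in T-like and -0.34 in endothelial-like to -0.64 in neutrophil-like cells. Kupffer-like cells had 1884, 1853 and 1425 CPM of Rps27 and T-like cells 9402, 9009 and 7543, lowest in dHep_IR in both. Rps27rt, with 84.0, 31.3 and 19.8 CPM in neutrophil-like cells, was also lowest in dHep_IR, but 341 of the 345 bases of the Rps27 transcript are found in Rps27rt in 1 run, so reads of the pair cannot be told apart. Rps27 (ENSMUSG00000090733) spans chr3:90212522-90213651 (- strand).

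Rpsa, which encodes the laminin receptor precursor and a protein of the small subunit, was the furthest above the group in neutrophil-like cells in both comparisons with FL_control. Its levels were 154 CPM in FL_control, against 318 in FL_IR and 538 in dHep_IR, each library apart from the others. Rpsa stood 2.06-fold (1.82 to 2.35) and 3.48-fold (3.08 to 3.96) above FL_control, at deviations of 1.36 and 1.97. In dHep_IR against FL_control Rpsa was the only 1 of 81 members at least 0.2 above the median in each of the 7 classes, beside 0.558% of genes, and Rpl22, Rpl37a, Rps21 and Rps27 were that far below it in each, beside 13.5% of genes. The X-linked Rps4x had 179, 327 and 366 CPM in neutrophil-like cells, and Rps20 had 166, 230 and 355.

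Beside 2 upward and 2 downward departures among 84 members in neutrophil-like cells of FL_IR against FL_control, 11.9% of all genes lay as high and 17% as low. In dHep_IR against FL_control the counts were 5 and 4, beside 11.2% and 25.7% of genes, and in dHep_IR against FL_IR 1 and 0, beside 1.78% and 2.13%. Among cells of 2000 to 10000 UMIs none of the neutrophil departures of FL_IR against FL_control remained, and of those of dHep_IR against FL_control only Rps27 and Rps27rt did. The endothelial calls of Rps19, Rps27l and Rps3 remained in that window.

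Departing large-subunit members were found in neutrophil-like cells, except Rpl3l in monocyte-like cells. Rpl3, which lies near the site where amino acids are joined, had 98.5 CPM in FL_control, against 57.5 in FL_IR and 147 in dHep_IR. It was the single departure of dHep_IR against FL_IR, 2.56-fold higher (2.41 to 2.73) at a deviation of 1.25 for Rpl3, and it was under the limit with doublets kept and in the depth window. Cluster 23 held 577 of 2342 neutrophil-like cells in FL_IR and 930 of 1850 in dHep_IR, and its part here was not tested. Rpl37 was lowest in dHep_IR, at 1552, 799 and 554 CPM. Rpl36al stood at 49.8, 45.4 and 89.2 CPM.

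Rpl22 and Rps15 lay at least 0.2 below the group in each of the 5 classes in FL_IR against FL_control, 2 of 82 members beside 6.65% of genes; no member lay as far above in each, beside 0.982% of genes. Rpl22, an RNA-binding protein of the large subunit that is dispensable for most translation, had 897, 933 and 968 CPM in endothelial-like cells, a ratio of 1.04 (1.02 to 1.06) in FL_IR against FL_control where the members' median was 0.55 on the log2 scale. Its deviations ran from -0.22 in Kupffer-like to -0.53 in neutrophil-like cells. The paralogue Rpl22l1, which can take the place of Rpl22 in the ribosome, had 213, 458 and 463 CPM in endothelial-like cells, a ratio of 2.15 (2.07 to 2.23) for FL_IR. The pair shared no run longer than 26 bases. For Rps15, a protein of the small-subunit head, the deviations ran from -0.29 to -0.45 in the same comparison.

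The stalk proteins, which recruit elongation factors to the large subunit, differed from each other. Rplp0, their base, had 807, 1121 and 1262 CPM in endothelial-like cells, and 330, 481 and 579 CPM in neutrophil-like cells. In neutrophil-like cells of FL_IR against FL_control Rplp0 deviated by 0.85, whereas Rplp1 and Rplp2, the acidic proteins bound to it, deviated by -0.66 and -0.36. In monocyte-like cells Rplp0 stood at 3458, 5143 and 4838 CPM. Rplp1 had 4421, 3911 and 4434 CPM there.

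Rpl5 and Rpl11, of the 5S particle, and Rpl23 lay near the median of the group in endothelial-like cells. Rpl5 had 781, 1256 and 1308 CPM, Rpl11 had 997, 1324 and 1488 CPM, and Rpl23 had 1940, 3191 and 3386 CPM. Their deviations in FL_IR against FL_control were 0.14 for Rpl5, -0.14 for Rpl11 and 0.17 for Rpl23. In neutrophil-like cells Rpl5 deviated by -0.68 and Rpl23 by -0.46, with Rpl11 at 0.15.

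Among the low paralogues, Rpl3l had an unusual place. This relative of Rpl3, known from heart and skeletal muscle, had 43 UMIs in the neutrophil-like class of FL_control, against 350 in FL_IR and 308 in dHep_IR, or 25.8, 13.99 and 12.3 CPM. The endothelial-like class held 1, 2 and 6 UMIs of Rpl3l and T-like cells 0 in each library. Over all kept cells Rpl3l was 5.88-fold higher (4.46 to 7.86) in FL_IR than in FL_control, although within neutrophil-like cells it was lower as a part of all UMIs. TMM factors shifted every gene of that class up by 0.84 on the log2 scale in this comparison, which took up most of the fall of Rpl3l. In monocyte-like cells its departure rested on 7, 32 and 122 UMIs, and it turned to -0.15 on the log2 scale in cells of 2000 to 10000 UMIs. Rpl39l, known from the testis, had 0.766, 0.331 and 1.21 CPM over all cells. Rps19bp1 had 22.5, 21.9 and 22.9 CPM in endothelial-like cells and Rpl7l1 62.6, 60.2 and 63.8, nearly level over the 3 libraries for both of these non-ribosomal genes.

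Classes differed in which members made up their ribosomal protein RNA. Of 82 members with at least 20 UMIs in each of 5 classes and 3 libraries, 14 differed 2-fold or more between the highest and lowest class in every library, and 45 had the same highest class in each. These counts were not made for all genes, so they do not set the members apart from other genes. Rps27l took 0.314%, 0.700% and 0.670% of ribosomal protein UMIs in endothelial-like cells of FL_control, FL_IR and dHep_IR, but only 0.0284%, 0.0363% and 0.0423% in T-like cells. Rps9, an early-binding protein of the small subunit, took 5.9996%, 7.21% and 6.44% in neutrophil-like cells, against 1.11%, 1.18% and 1.31% in endothelial-like cells. Rps27a, made as a fusion with ubiquitin, likewise took 4.09%, 5.62% and 4.97% in neutrophil-like cells and 1.38%, 1.46% and 1.55% in endothelial-like cells. Rpl12, near the stalk, went the other way, with 0.252%, 0.2501% and 0.422% in neutrophil-like and 1.74%, 1.84% and 1.90% in T-like cells. Free RNA was not removed, and its part in these shares was not tested.

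**Figure D4:**
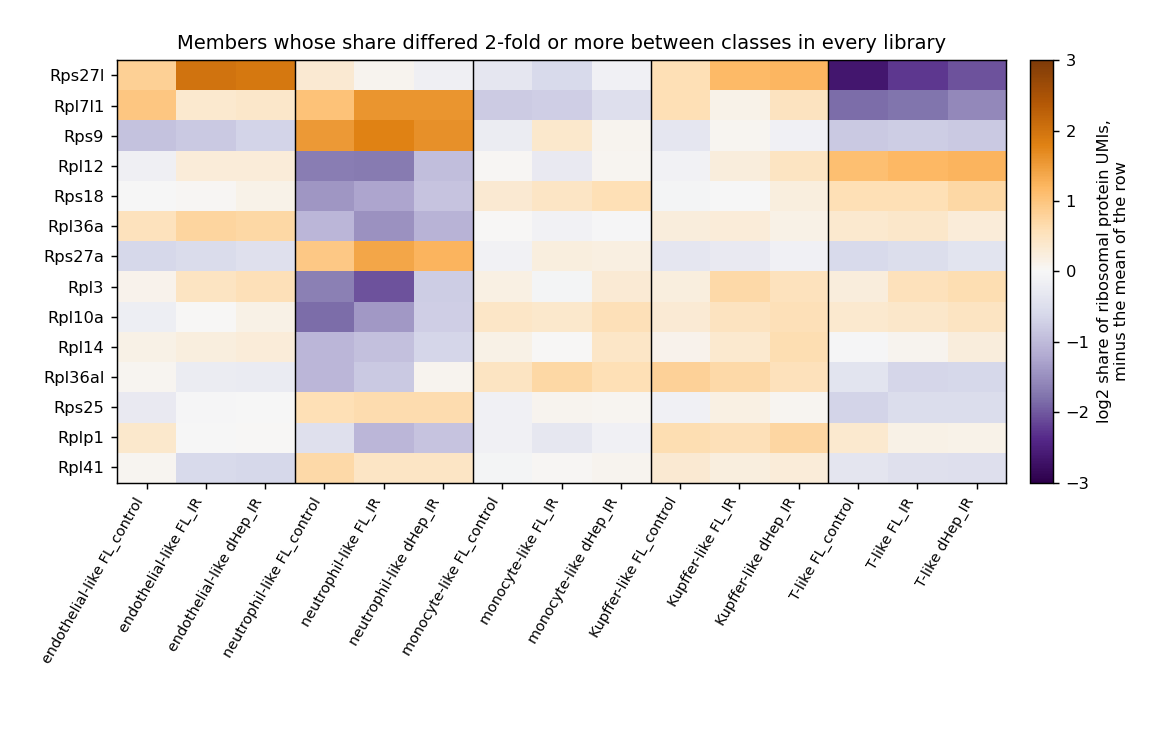
Colour gives the log2 share of ribosomal protein UMIs held by each of 14 members (rows), minus the row mean, in 5 classes and 3 libraries (columns). Neutrophil-like columns stand apart for Rps9, Rps27a, Rpl12, Rps18 and Rpl3 in each library, and Rps27l is highest in endothelial-like and lowest in T-like columns.

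Members with short coding sequences lay mostly below the others in each comparison. The coding length of the members ran from 138 to 1257 bases with a median of 453. In dHep_IR against FL_IR the 10 tested members under 300 bases were all below the members' median in endothelial-like cells, with a median deviation of -0.23, and 8 or 9 of the 10 were below it in each other class. They are Rpl41, Rpl39, Rps29, Rps28, Rpl38, Rps21, Rps27, Rps27rt, Rpl37a and Rpl37. Spearman's rho between coding length and deviation across members, given as a description of genes that share these libraries, was 0.68 for the endothelial-like class, 0.63 for T-like, 0.48 for monocyte-like, 0.32 for Kupffer-like and 0.30 for neutrophil-like cells. For genes outside the group the values ran from -0.15 to -0.29. Over members rho ran from 0.27 to 0.38 over the 5 classes of FL_IR against FL_control, and from 0.43 to 0.65 over the 7 classes of dHep_IR against FL_control. For genes outside the group it ran from -0.13 to 0.13 and from -0.02 to -0.35. With transcript length in place of coding length, rho over members was lower in each class and comparison. It ran from 0.11 in Kupffer-like cells of FL_IR against FL_control to 0.38 in endothelial-like cells of dHep_IR against FL_IR. Of the 10 short members, 6 lay below the median in endothelial-like cells of FL_IR against FL_control and 9 or 10 in each other class of both comparisons with FL_control. Rps29, for example, had 3329 CPM in endothelial-like cells of FL_IR and 2894 in dHep_IR, and 9805 and 8012 CPM in T-like cells.

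**Figure D5:**
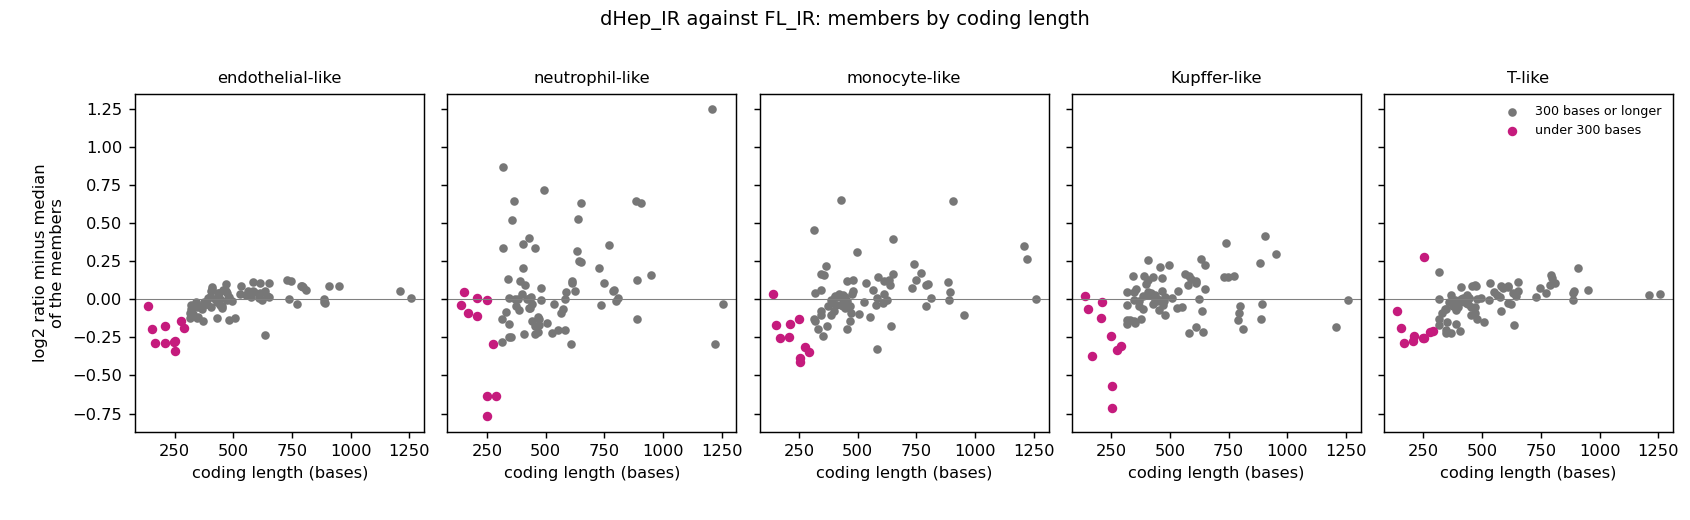
Points are members, by coding length (bases, x axis) and log2 ratio of dHep_IR to FL_IR minus the median of the members (y axis), in 5 classes. The members under 300 bases lie mostly below 0, all 10 of them in endothelial-like cells.

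Other genes of translation were read from lists beside the members. Of 24 translation factors and other TOP messages, 19 had a log2 ratio above 0 in endothelial-like cells of FL_IR against FL_control, beside 45.3% of all genes, with a median of 0.40 against 0.55 for the members. Eef1a1, which brings transfer RNA to the ribosome, had 2630 CPM in FL_control and 5649 in FL_IR, and Eef2, which moves the ribosome along, 526 and 960. Eef1g, at 361 and 321 CPM, and Cct4, at 117 and 108, lay lowest. Mitochondrial ribosomal proteins, which serve the separate ribosome of that organelle, had a median near that of all genes in that class and comparison: 29 of 77 lay above 0, with a median of -0.10 against -0.07. Mrpl16, at 11.3 and 18.02 CPM, and Mrpl33, at 119 and 184, lay highest, and Mrps36, at 76.2 and 25.99, and Mrps25, at 33.9 and 15.2, lowest. The mitochondrial list was not level everywhere. In Kupffer-like cells of dHep_IR against FL_IR 60 of 69 lay above 0, beside 38.9% of genes, with a median of 0.27 against 0.19 for the members. Monocyte-like cells had 67 of 77 there, beside 45.1%, with a median of 0.25. In Kupffer-like cells of FL_IR against FL_control it was 20 of 74, beside 50.9%, with a median of -0.27.

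Of 44 ribosome biogenesis genes 28 lay above 0 in the same comparison, beside 45.3% of all genes, with a median of 0.17 against -0.07. Polr1a, the large subunit of RNA polymerase I, had 13.6 CPM in FL_control and 37.3 in FL_IR, and Gnl3, the nucleolar protein nucleostemin, 34.3 and 63.7. Znhit6, at 14.6 and 7.97 CPM, and Polr1e, at 4.17 and 2.41, lay lowest. In Kupffer-like cells, where the members' share was higher in dHep_IR than in FL_IR, 27 of 31 biogenesis genes lay above 0, beside 38.9% of genes, with a median of 0.33. Monocyte-like cells, with a member share ratio of 0.995, had 34 of 41 above 0 in that comparison, beside 45.1% of genes, with a median of 0.31. For FL_IR against FL_control, however, 7 of 31 lay above 0 in these cells, beside 48.8% of genes, with a median of -0.36. For dHep_IR against FL_control it was 17 of 42, beside 42.6%, with a median of -0.10. Neutrophil-like cells had 3 of 12 above 0 in FL_IR against FL_control, beside 31.2%, with a median of -0.80. In NK or ILC1-like cells of dHep_IR against FL_control 14 of 16 lay above 0, beside 35.4% of genes, with a median of 0.84. In cholangiocyte-like cells, with a member share ratio of 1.34, 6 of 14 did, beside 38.5%, with a median of -0.07.

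Genes of growth control and of p53 gave larger single differences in endothelial-like cells. Ddit4, an inhibitor of mTOR, had 32.3 CPM in FL_control and 233 in FL_IR, and Mxd1, a partner of Max that opposes Myc, 27.1 and 170. Eif4ebp2, which holds back the cap-binding factor, had 188 and 77.9 CPM, and Mlst8, a subunit of the mTOR complexes, 7.76 and 4.38. In this growth control list 14 of 22 genes lay above 0, beside 45.3% of all genes, with a median of 0.23 against -0.07. All 8 genes of the p53 and ribosome stress list did, with a median of 2.72: Phlda3 had 14.8 and 365 CPM and Eda2r 7.37 and 108, both p53 targets, while Mdm4 stood at 56.5 and 112 and Trp53 at 54.3 and 60.6. The same 8 genes had a median of -0.02 in dHep_IR against FL_IR.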

How the data were processed

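The authors deposited raw UMI counts per gene and barcode. Per the submitters' processing notes, mm10 was the build, and CASAVA 1.8, Cell Ranger 6.1.1 and Seurat 4.0.3 were among the tools; no gene annotation version is named there. The libraries held 52858425, 59228905 and 78694038 UMIs. Cells with at least 500 UMIs, 250 genes and at most 25% mitochondrial UMIs were kept. Scrublet in scanpy 1.11.5 removed 160, 235 and 291 doublets. Cells were clustered together (2000 variable genes, 30 components, 15 neighbours, Leiden resolution 1), giving 27 clusters, named from marker lists. How markers were turned into names was settled with the clusters in view. Counts were summed per library and class, in classes with at least 50 cells. Log2 ratios had a prior count of 0.5. Intervals were Clopper-Pearson for shares and exact conditional for ratios, and cover counting error only. TMM factors came from edgeR 4.0.16. The calculations were tested on simulated data. Transcript and coding lengths and gene positions came from GENCODE M21 (GRCm38).

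The members and lists were chosen with earlier results of these data known. Members were named if they were among the 5 highest or 5 lowest, among the 3 furthest up or down in a class, on 1 side in every class, paralogues, stalk proteins, Rpsa, Rpl5, Rpl11, Rpl23, Rps19bp1 or Rpl7l1; of other lists, the 2 highest and 2 lowest in endothelial-like cells. Members of the class make-up and length descriptions were named after their values were seen. The single values of 1 departing member are not reported here; it stays in the counts.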

Additional observations from a re-analysis of the deposited data

Results flagged for a closer look

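The ribosomal protein share moved in opposite directions in 2 classes of the same libraries. For FL_IR against FL_control its log2 ratio came to 0.55 in endothelial-like cells and -0.37 in neutrophil-like cells. In dHep_IR against FL_control it was 0.60 and -0.30. With 1 library per group the difference between the classes was not tested, and both comparisons share FL_control. With S100a8 and S100a9 left out of the total, or with TMM factors, the neutrophil values were above 0.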

How the results depend on the processing

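No paired analysis was possible because each group has 1 library, and for the same reason no library could be left out. The log2 ratio of the share over all kept cells of FL_IR against FL_control, -0.66, was -0.69 with stricter cell filters, -0.66 with doublets kept, -0.65 as a mean of per-cell shares, -0.70 without mitochondrial UMIs, -0.77 in cells of 2000 to 10000 UMIs and -0.091 with TMM factors. For dHep_IR against FL_IR, 0.38, the same settings gave 0.38, 0.38, 0.28, 0.40, 0.34 and 0.44, and for dHep_IR against FL_control, -0.28, they gave -0.31, -0.28, -0.37, -0.31, -0.43 and 0.35. Among alternatives chosen after seeing the data, leaving out the shallow endothelial-like cluster 19 gave -0.69, 0.40 and -0.29, leaving S100a8 and S100a9 out of the total -0.43, 0.35 and -0.081, and leaving out neutrophil-like and B-like cells 0.16, 0.22 and 0.38. Of 5 classes, 3 had a higher share in FL_IR than in FL_control, and 5 did with TMM factors or without S100a8 and S100a9. For dHep_IR against FL_IR the 3 became 5 with TMM factors. TMM shifted every gene of a class by up to 0.93 on the log2 scale, in neutrophil-like cells of dHep_IR against FL_control. Neutrophil-like ratios against FL_control became 0.021 and 0.16 without S100a8 and S100a9 and 0.47 and 0.63 with TMM factors, and T-like ratios -0.050 and -0.082 in cluster 7 alone. The counts of departing members, 6, 1 and 12, became 2, 0 and 4 in the depth window and 33, 13 and 42 at a departure of 0.5. The share of all genes departing was not counted under these settings, so these counts have no background to be read against. The count of 1 became 0 with doublets kept and 2 with a minimum of 20 UMIs or none, the second being Rpl39l. Rpl3l in monocyte-like cells turned to -0.15 in the depth window. The causes of these changes were not tested. Rpl39l and, outside neutrophil-like cells, Rpl3l are limited by their few UMIs.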
